A study of Arabidopsis thaliana with 5 samples.

Results

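The thioredoxin gene spots are the 31 spots, of 29234 gene spots on the array, whose Arabidopsis locus identifier goes with a description that holds the word thioredoxin. They stand for 31 loci, of 26017 in all, so that each locus has 1 spot. The word glutaredoxin was searched for in the same way and was found in 0 descriptions, so the glutaredoxin genes are described below from a list of locus numbers. By their names the members are 9 plastid thioredoxins of the f, m, x and y types, 8 h-type and 2 o-type thioredoxins, 4 reductase subunits or enzymes, 6 proteins that carry a thioredoxin-like domain, 1 thioredoxin-dependent peroxidase and AT4G11610. The files describe AT4G11610 as NTRB, whereas RefSeq gives that name to AT4G35460, which the files call NTR1. RefSeq holds only a locus number for AT4G11610, and its values are therefore given under that number.

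Leaf RNA was measured on 5 two-colour arrays, each with 1 overexpressor (OE) in the Cy5 channel and wild-type (WT) plants of the same growth state in the Cy3 channel. OE-AhERF-VII plants (AhERF in the labels, line EL25) came from optimal growth (Op), from water stress (WS) and from recovery after it (R), and OE-AhDof-AI plants (AhDOF in the labels, line DL2) came from salt stress (SS) and Op. All plants were in the Col-0 background, and rosette leaves were taken at 5 weeks according to the labels. WS meant 5 days without water, R meant 24 h after watering was resumed, and SS meant 3 days of watering with 40 mL of 400 mM NaCl, again by the labels; the methods of the study give other ages, days and doses. The transgenes come from grain amaranth. Each was represented by 1 homozygous line, so an effect of the transgene and one of that line's insertion cannot be told apart. There was 1 array for each state of a line and the dyes were not exchanged, so a ratio of OE to WT has no replicate error. Op is the only state in which WT plants were hybridized more than once, on the Op array of each line, and these channels give the only spread between arrays of one state.

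Thioredoxins are small proteins that reduce disulfide bonds of their targets through a pair of cysteines in the active site. In the chloroplast they receive electrons from photosynthetic ferredoxin through ferredoxin-thioredoxin reductase, and they switch on enzymes of the Calvin cycle in the light. In the cytosol and the mitochondria, the h-type and o-type proteins are reduced by NADPH-dependent reductases. Glutaredoxins are related proteins that draw electrons from glutathione instead.

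The values belong to spots that carry a given name, and the files do not bear out that each spot measured the named gene. Over 1526 pairs of gene spots with one identifier, the brightness of one spot had a correlation of 0.0694 with that of the other, and their ratios of OE to WT had correlations of 0.0898 to 0.161. The SD within such pairs was 2.28 log2 units, against 2.38 over all gene spots. For 22 controls that were printed several times the median SD was 0.34, with a range of 0.13 to 1.42. The 17 spots of leaf markers lay between brightness percentiles 14.7 and 92.8. Since levels of different spots cannot be compared, marker spots give no check of the tissue here. The part of spot identity in the results below was not tested.

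The member spots covered nearly the whole range of brightness, with percentiles 4.35 to 98.9 and a median of 47.4. Brightness of different spots is no measure of relative transcript level and only tells how well each spot was read. The 510 empty spots set the background limit of each channel, at the 95th percentile of their net signal. By that limit 18 of 31 members were above background in all 10 channels, and TRXY2 and TRXH5 in none. OE channels were dimmer, with 19 to 26 members above background per array, against 26 to 28 in WT channels. Among the classes, 6 of 8 h-type thioredoxins, 5 of 9 plastid thioredoxins, both o-type thioredoxins, 4 of 6 proteins with a thioredoxin-like domain and 1 of 4 reductases were above background in all 10 channels.

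The first question was whether thioredoxin spots differed between OE and WT plants of the same state. Few of them were called. Each log2 ratio was set against the 100 gene spots nearest to it in brightness on the same array (Z score), and a spot was called at a Z score of 2 or more in size. Over the 155 ratios of 31 members on 5 arrays, 1 was called, and no member differed by 2-fold or more on any array. In OE-AhERF-VII plants in Op, 1 member was called higher and 0 lower, against 1.78% and 3.21% of all gene spots. In WS 0 members were called, where 2.0% of gene spots were called higher and 2.91% lower. In R 0 members were called, against 2.32% higher and 2.66% lower. OE-AhDof-AI plants had 0 members called in SS, against 1.35% of gene spots higher and 3.44% lower, and 0 in Op, against 1.51% higher and 3.57% lower. Over the 5 arrays together, 4.95% of the ratios of all gene spots were called, against 1 of the 155 ratios of the members. The Z score scales each ratio by the spread of its neighbours, so such a share does not tell how many transcripts differed. With 31 members, such shares amount to few or no spots on any single array, and members that were at background in both channels are among the 155.

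The median log2 ratio of the members was -0.09 in Op, 0.04 in WS and 0.08 in R of OE-AhERF-VII plants, and 0.05 in SS and 0.01 in Op of OE-AhDof-AI plants. The median of all gene spots was 0 on each array. The member ratios spread somewhat less than those of all gene spots on each array. Their SD was 0.23 to 0.31 log2 units, against 0.27 to 0.33 over all gene spots.

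**Figure D1:**
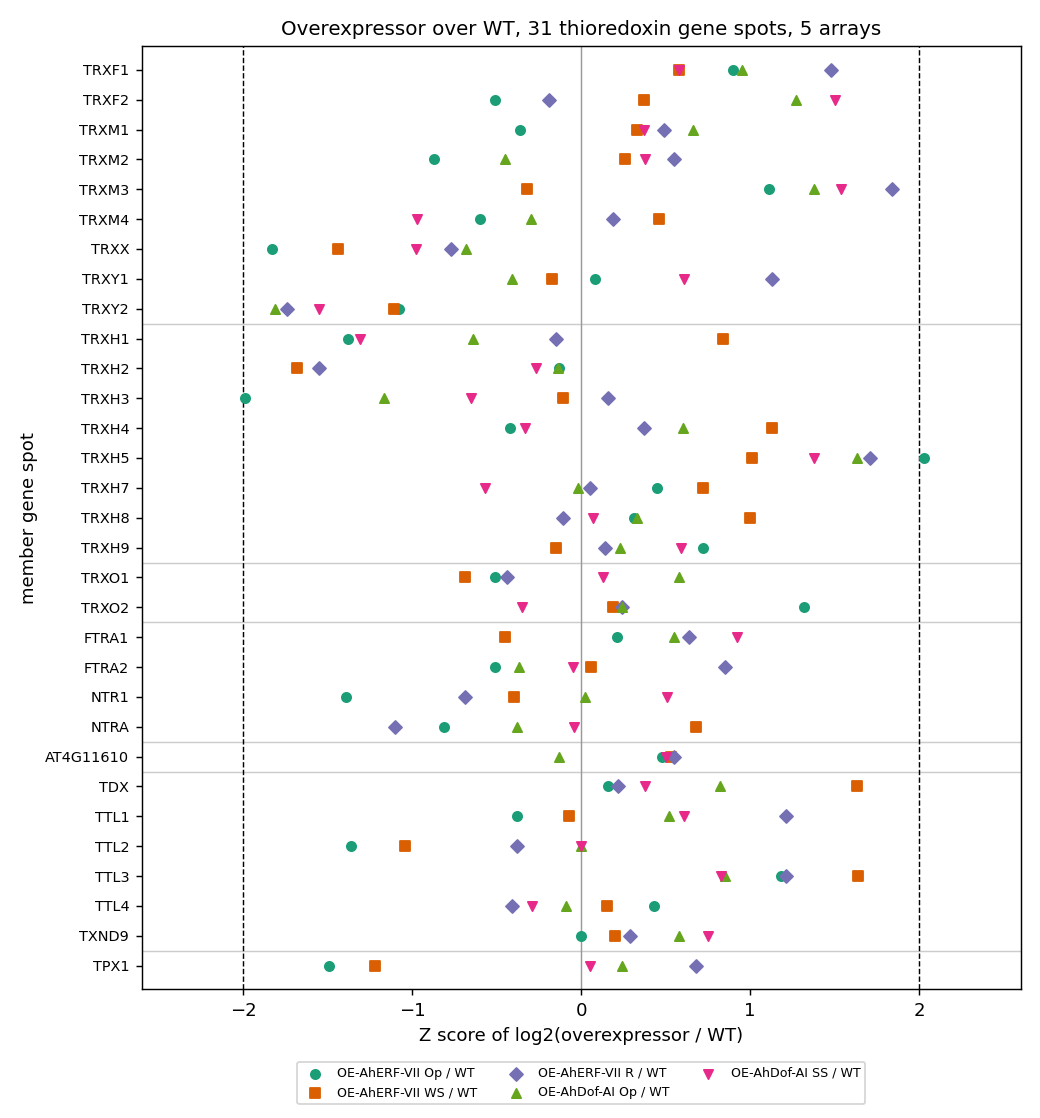
Z scores (horizontal axis, no unit) of the log2 ratio of overexpressor over WT for the 31 thioredoxin gene spots (rows, grouped by class with grey lines between classes) on the 5 arrays (colours and shapes). The dashed lines mark a Z score of 2 in size; 1 of the 155 points, TRXH5 in OE-AhERF-VII plants in Op, lies beyond them.

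Among the plastid thioredoxins, TRXF1 and TRXF2 encode f-type proteins, the main activators of Calvin cycle enzymes such as fructose-1,6-bisphosphatase. TRXF1 measured 9.58, 9.34 and 8.80 log2 units in Op, WS and R of OE-AhERF-VII plants, against 9.33, 9.11 and 8.40 in WT plants on the same arrays. In SS and Op of OE-AhDof-AI plants it measured 9.47 and 9.88 log2 units, against 9.29 and 9.65 in WT plants. The OE value was the higher one on all 5 arrays, by 0.18 to 0.40 log2 units, with Z scores of 0.58 to 1.48. TRXF2 was among the brightest spots of the array (percentile 98.9), and its ratios ran between -0.09 and 0.45.

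Of the m-type thioredoxins, which include regulators of plastid carbon metabolism, TRXM3 had the highest ratios. Its log2 ratio was 0.31, -0.07 and 0.47 in Op, WS and R of OE-AhERF-VII plants, and 0.46 and 0.40 in SS and Op of OE-AhDof-AI plants, with a highest Z score of 1.84 in R. TRXM1, TRXM2 and TRXM4 stayed between -0.31 and 0.14, with the OE channel of TRXM2 at background on every array and that of TRXM1 on the 3 OE-AhERF-VII arrays. TRXX, whose protein serves as an electron donor to plastid peroxiredoxins, had its OE channel above background on 1 of the 5 arrays only, that of R, where the log2 ratio was -0.24 (Z score -0.77). On the other arrays OE plants have only a bound: WT was at least 1.22-fold higher in Op and 1.2-fold higher in WS on the OE-AhERF-VII arrays, and at least 1.16-fold higher in SS on the OE-AhDof-AI array, and no fold can be given in Op of OE-AhDof-AI plants. The lowest Z score, -1.83, was that of OE-AhERF-VII plants in Op. TRXY1 had ratios between -0.08 and 0.33, and TRXY2, which was at background throughout, had Z scores of -1.81 to -1.08.

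The cytosolic h-type thioredoxins held both the highest and the lowest Z score of the ratios. TRXH5, known for its part in the redox control of the immune regulator NPR1, had Z scores of 2.03, 1.01 and 1.71 in Op, WS and R of OE-AhERF-VII plants and of 1.38 and 1.63 in SS and Op of OE-AhDof-AI plants. The score of 2.03 was the single call of a member in these ratios. Neither channel of this spot was above background on any array, so no fold is given, and the score was 1.81 without background correction, 0.79 after print-tip loess and 1.24 in the deposited normalized values.

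TRXH3, one of the bright h-type spots (percentile 86.5), measured 13.60, 13.78 and 13.37 log2 units in Op, WS and R of OE-AhERF-VII plants, against 14.33, 13.88 and 13.39 in WT plants. In OE-AhDof-AI plants it measured 13.31 and 13.76 log2 units in SS and Op, against 13.50 and 14.07 in WT plants. OE-AhERF-VII plants in Op thus stood 0.73 log2 units below WT, a 1.65-fold difference with a Z score of -1.99, just inside the limit for a call. In R of the same line the channels differed by 0.02 log2 units. TRXH2 was likewise lower in OE plants on all 5 arrays, by 0.47 log2 units in WS (Z score -1.68), 0.36 in R (Z score -1.55) and 0.06 to 0.07 elsewhere. TRXH1, TRXH4, TRXH7, TRXH8 and TRXH9 had ratios between -0.43 and 0.26. The mitochondrial o-type thioredoxins TRXO1 and TRXO2 stayed between -0.16 and 0.36.

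For the reductases, which pass electrons to the thioredoxins, ratios were between -0.37 and 0.25. NTRA, an NADPH-dependent thioredoxin reductase, had log2 ratios of -0.34, 0.07 and -0.24 in Op, WS and R of OE-AhERF-VII plants, and of -0.07 and -0.13 in SS and Op of OE-AhDof-AI plants. NTR1 (AT4G35460) had its lowest Z score, -1.39, in OE-AhERF-VII plants in Op. FTRA1 and FTRA2, the genes of the variable subunit of ferredoxin-thioredoxin reductase, had Z scores between -0.51 and 0.92. The OE channels of NTR1 were at background in WS and R, and those of FTRA1 and FTRA2 in R. AT4G11610 ran between -0.08 and 0.21 log2 units, with its OE channel at background on all arrays but that of SS.

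Proteins that combine tetratricopeptide repeats with a thioredoxin-like domain (TTL1 to TTL4, and TDX) had ratios between -0.32 and 0.47. The lowest was that of TTL2 in Op of OE-AhERF-VII plants, where both channels were at background. TTL2 had no OE channel above background, and TTL1 had its OE channel at background in Op and R of OE-AhERF-VII plants. TTL3, a scaffold in brassinosteroid signalling, was higher in OE plants on all 5 arrays, by 0.31, 0.47 and 0.32 log2 units in Op, WS and R of OE-AhERF-VII plants and by 0.23 and 0.19 in SS and Op of OE-AhDof-AI plants. Its Z scores were 0.83 to 1.64. TDX, which acts as a chaperone that responds to heat and redox state, had its highest ratio, 0.43, in WS (Z score 1.63). TPX1, a peroxiredoxin that reduces peroxides with electrons from thioredoxin, had log2 ratios of -0.03 and 0.05 in SS and Op of OE-AhDof-AI plants. Its OE channel was at background in Op, WS and R of OE-AhERF-VII plants, where WT was at least 1.11-fold higher in WS and no fold can be given in Op and R.

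Counted over the arrays, 3 members (TRXF1, TTL3 and TRXH5) had a ratio above 0 on all 5 and 5 members (TRXX, TRXY2, TRXH2, TRXH3 and TTL2) on none. Of these TRXH5 and TRXY2 were above background in no channel, TTL2 in no OE channel and TRXX in 1 OE channel. Among all gene spots 18.7% were above 0 on all 5 arrays and 18.4% on none. All 5 arrays had OE in the same dye, so a dye effect of a spot and a difference between genotypes cannot be told apart in a repeated sign.

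The second question was how the thioredoxin spots varied between growth states. Here channels of different arrays were compared, so that array and state cannot be told apart. WT plants were tested with limma across all gene spots, with both WT Op channels giving the spread and the single WS, R and SS channels assumed to vary like them. The labels do not say whether these Op channels came from separate plants. Differences from Op used the mean of both WT Op channels in WT plants, but the Op array of their own line in OE plants. Over all gene spots the WT Op channels had a correlation of 0.962 and a median difference of 0.38 log2 units in size, against 0.36 for the members. At an adjusted p under 0.05 limma called 0 members in WS over Op, where it called 0.0616% of gene spots, 0 in R over WS (0.168% of gene spots), and 0 in SS over Op (0.0513% of gene spots). At an unadjusted p under 0.05 in limma there were 0, 6 and 1 of the 31 members. Among all gene spots there were 1156 (3.95%), 3195 (10.9%) and 800 (2.74%). By Z score 0, 4 and 0 members were called.

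In WS against Op the median log2 difference of the members was 0.18 in OE-AhERF-VII plants and 0.15 in WT plants, against 0.02 and 0.01 over all gene spots. Of the 31 members 22 were higher in WS in OE-AhERF-VII plants and 20 in WT plants, against 51.5% and 50.8% of all gene spots, with 9 members at background in both OE channels. Among the 20 members above background in both OE channels 14 were higher and 6 lower. The WT values rested on 1 Op channel: without that of the OE-AhERF-VII array 16 of 31 members were higher and the median was 0.01, as over all gene spots. Of the 6 proteins with a thioredoxin-like domain, TXND9, TTL3, TDX and TTL4, all above background in every channel, were 0.61 to 0.94 log2 units higher in WS in OE-AhERF-VII plants and 0.16 to 0.61 higher in WT plants, none of them a call. Against the WT Op channel of the OE-AhERF-VII array alone, the reference array of the OE values, the WT differences of these spots were 0.37 to 0.86. Without the WT Op channel of the OE-AhERF-VII array 3 of the 6 were higher in WT plants, with TXND9 at -0.25 and TDX at -0.05. TTL2 was at background in WS and Op in both genotypes. In OE-AhERF-VII plants 2 members were called higher and 0 lower, against 2.05% and 2.99% of gene spots. In WT plants 0 were called by Z score, against 1.81% of gene spots higher and 2.96% lower.

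The members called in OE-AhERF-VII plants were TRXH1 and TTL1. TRXH1, a cytosolic thioredoxin, measured 13.50 log2 units in WS and 11.92 in Op, a difference of 1.58 (Z score 2.72). WT plants on the same arrays measured 13.31 in WS and 12.29 in Op, a difference of 1.02. On the other Op array, however, TRXH1 measured 13.89 log2 units in OE-AhDof-AI plants and 14.08 in WT plants. The WT Op values thus differed by 1.79 log2 units (13.18 ± 1.27, SD, n = 2), beyond the 95th percentile of that difference over gene spots (1.37), and the WT WS value of 13.31 lay between them.

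TTL1, whose protein is needed for tolerance of osmotic stress and normal abscisic acid responses, measured 9.53 log2 units in WS and 8.11 in Op of OE-AhERF-VII plants (Z score 2.0). Since the Op channel was not above background there, WS was at least 2.02-fold higher. The score was 1.75 with 50 neighbours and 1.87 after quantile normalization, so the call did not hold under either. Against the WT Op channel of the same array, WT plants were 1.29 log2 units higher in WS (Z score 1.73). Against that of the OE-AhDof-AI array they were 0.53 higher (Z score 0.68). In WT plants TTL1 measured 9.54 in WS and 8.64 ± 0.54 in Op (SD, n = 2), a difference of 0.91 ± 0.52 (SE), with an adjusted p of 0.999 in limma.

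Other members with high or low scores in WS over Op were not called. FTRA2 stood 1.13 log2 units higher in WS in OE-AhERF-VII plants and 0.89 higher in WT plants, with Z scores of 1.66 and 1.41. In WT plants TRXM3 had a difference of 0.96 (Z score 1.36) and TRXH2 one of 1.08 (Z score 1.45). At the other end TRXH9, a membrane-associated h-type thioredoxin that can move from cell to cell, was 1.13 log2 units lower in WS in OE-AhERF-VII plants (Z score -1.38), and in WT plants the difference was -1.38 ± 0.71 (SE, adjusted p = 0.999 in limma). In WT plants TRXH7 had a Z score of -1.55, as low as that of TRXH9, but it was at background in WS and in both Op channels. TRXF2 had a Z score of -1.09.

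Recovery against water stress gave the widest differences. All gene spots had an SD of 0.82 log2 units in OE-AhERF-VII plants and 0.84 in WT plants, and the members 0.97 and 1.00. Of the 31 members, 10 in OE-AhERF-VII plants and 7 in WT plants differed by 2-fold or more between R and WS. In each genotype 6 of them had both channels above background. Of the 29234 gene spots 5828 and 5983 differed by as much. The R array was also the dimmest, with a median net signal of 239 in the OE channel and 432 in the WT channel, against 474 and 795 on the WS array. The median member was 0.29 log2 units lower in R in OE-AhERF-VII plants and 0.37 lower in WT plants, while all gene spots had medians of -0.02 and -0.04. In OE-AhERF-VII plants 1 member was called higher and 2 lower, against 2.67% and 2.01% of gene spots. In WT plants 1 was called higher and 3 lower by Z score, against 2.88% and 1.75% of gene spots. Among the marker spots in R over WS, 1 spot of the leaf marker RBCS1A was called higher. Its difference was 2.48 log2 units for OE-AhERF-VII and 2.57 for WT plants. It was the only call among 17 leaf spots in either genotype, so the other RBCS1A spots were not called. The leaf spots as a list did not rise: their median was -0.14 on the OE side, against 0.01 on the WT side. A seed storage albumin (SESA1) was called lower, with OE and WT differences of -2.56 and -3.27, as 1 of 4 seed spots. Of 4 root spots 2 were called in OE-AhERF-VII plants and 0 in WT plants, and of 2 pollen spots 0 in either. The part of these spots, and of the dim array, in the differences of the members was not tested. OE and WT channels of an array share its spots and its hybridization, so the OE and WT differences are not independent of each other.

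TRXH9 had the largest difference of any member. It measured 11.25, 10.13 and 13.04 log2 units in Op, WS and R of OE-AhERF-VII plants, and 11.03, 10.14 and 12.99 in WT plants on the same arrays. On the OE-AhDof-AI arrays it measured 12.05 in SS of OE plants, against 11.93 in WT plants, and in Op the channels differed by 0.01 log2 units. It was thus lowest in WS and highest in R in both genotypes, with every channel above background. R over WS was 7.54-fold in OE-AhERF-VII plants (Z score 3.14) and 7.21-fold in WT plants, or 2.85 ± 0.82 log2 units (SE, Z score 2.53). The unadjusted p in limma was 0.00261 and the adjusted p 0.201, so that the WT difference did not pass the test.

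TDX was the opposite case. It measured 13.11, 13.92 and 11.69 log2 units in Op, WS and R of OE-AhERF-VII plants, against 13.13, 13.50 and 11.60 in WT plants. On the OE-AhDof-AI arrays OE plants measured 13.82 in SS and 13.68 in Op, against 13.77 and 13.55 in WT plants. The R value was the lowest in both genotypes. R was 4.72-fold lower than WS in OE-AhERF-VII plants (Z score -2.66) and 3.72-fold lower in WT plants (-1.90 ± 0.67 log2 units, SE, Z score -2.10, adjusted p = 0.29 in limma).

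**Figure D2:**
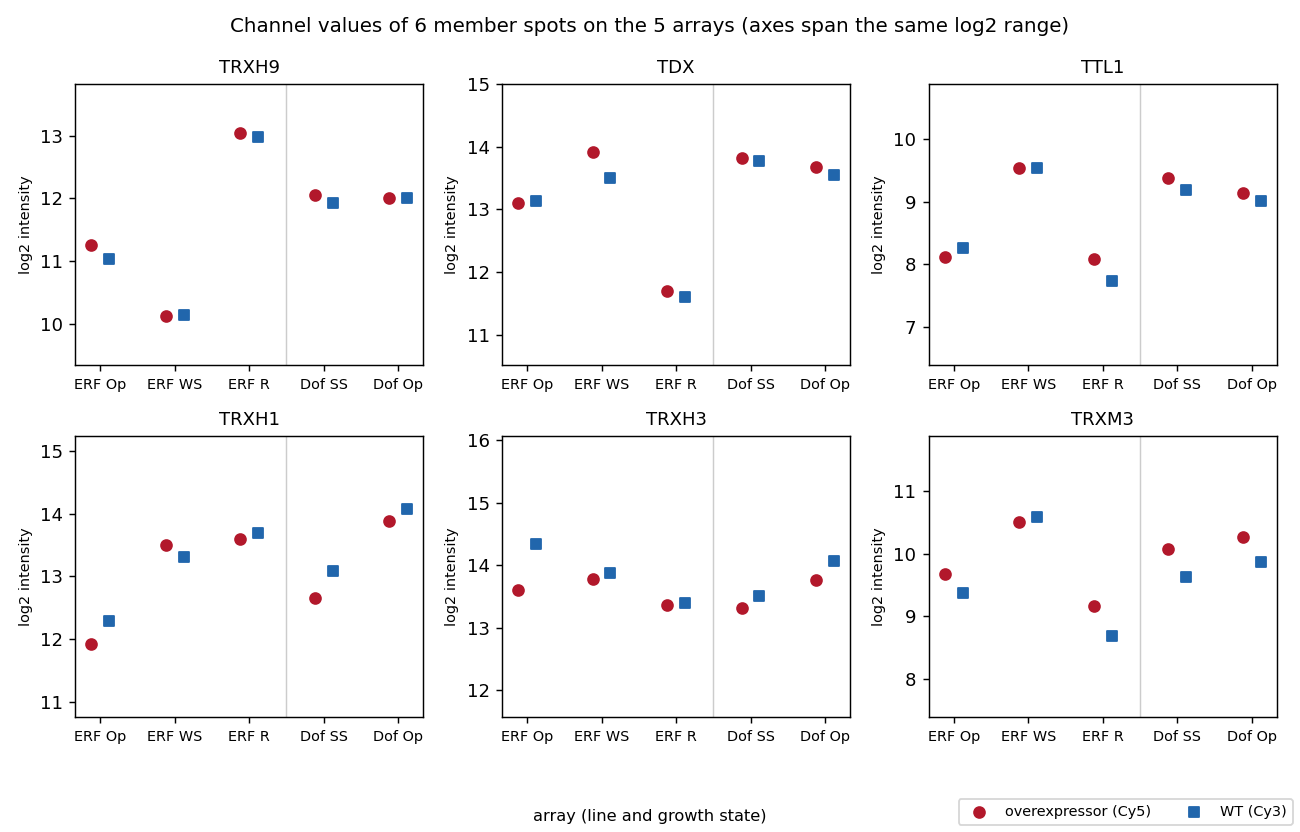
Normalized log2 intensity (vertical axis, each panel spanning the same range) of 6 thioredoxin gene spots on the 5 arrays (ERF: OE-AhERF-VII, Dof: OE-AhDof-AI), with 1 overexpressor channel (circles) and 1 WT channel (squares) each. Channels of one array lie at most 0.73 log2 units apart (TRXH3 in OE-AhERF-VII and WT plants in Op), whereas TRXH9 measured 13.04 in OE-AhERF-VII and 12.99 in WT plants in R, against 10.13 and 10.14 in WS.

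TTL1 measured 9.53 log2 units in WS and 8.08 in R of OE-AhERF-VII plants, with the R channel at background, so that R was at least 1.76-fold lower; its Z score of -1.65 was not a call. In WT plants R was 3.51-fold lower than WS (-1.81 ± 0.60 log2 units, SE, Z score -2.34), with an adjusted p of 0.263 in limma. TRXM2, a plastid m-type thioredoxin, had a Z score of -2.22 in OE-AhERF-VII plants, and its WT score was -2.28. No fold is given for the OE channels, both at background, and in WT plants R was at least 1.37-fold lower than WS (adjusted p = 0.332 in limma).

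None of the 4 reductases among the members was called in R over WS. In WT plants all 4 were above background in both channels and lower in R, with a median of -0.77 log2 units, where 47.5% of all gene spots were higher. In OE-AhERF-VII plants NTR1 was at background in both states and FTRA1 and FTRA2 in R, so that only NTRA had a measured difference. FTRA2 was lowest, at 8.15 log2 units in R and 9.68 in WS of OE-AhERF-VII plants, where the R channel was at background and R was at least 1.96-fold lower, and at 7.90 and 9.68 in WT plants. The WT difference was -1.78 ± 0.59 log2 units (SE, Z score -1.90, adjusted p = 0.259 in limma). NTRA was 1.06 log2 units lower in R in OE-AhERF-VII plants (Z score -1.52) and 0.74 lower in WT plants (Z score -1.02). TRXM3 had a WT difference of -1.89 ± 0.71 log2 units (SE, adjusted p = 0.332 in limma) and, with TRXH9, TDX, TTL1, FTRA2 and TRXM2, makes up the 6 members with an unadjusted p under 0.05. TPX1 was at background in R and WS of OE-AhERF-VII plants and 0.87 log2 units lower in R in WT plants. The plastid thioredoxins as a class had a median of -0.19 in OE-AhERF-VII plants, against -0.05 in WT plants, and the h-type thioredoxins 0.20 and 0.45.

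**Figure D3:**
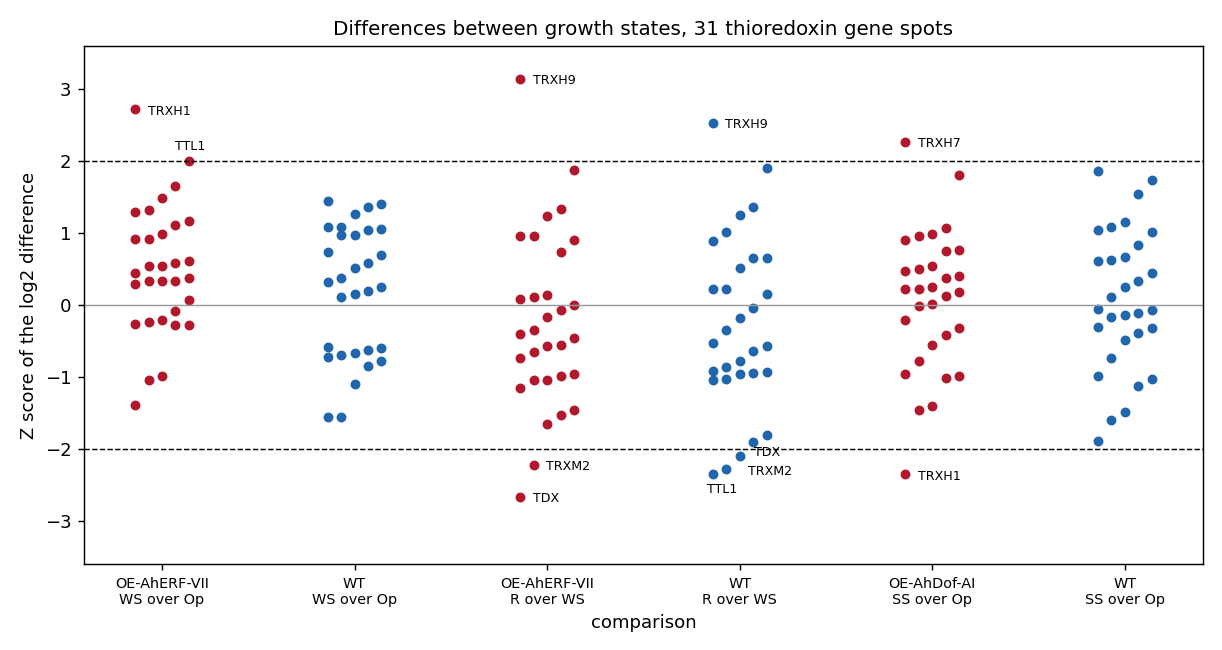
Z scores (vertical axis, no unit) of the log2 difference between growth states for the 31 thioredoxin gene spots, in overexpressor channels (red) and WT channels (blue), with the comparisons along the horizontal axis. Points beyond the dashed lines, at a Z score of 2 in size, are named: 2 in WS over Op, 3 in R over WS and 2 in SS over Op of overexpressor plants, and 4 in R over WS of WT plants.

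Salt stress against Op gave small differences. The median member difference was 0.05 log2 units in OE-AhDof-AI plants and 0.05 in WT plants, against 0.00 and 0.02 over all gene spots. In OE-AhDof-AI plants 1 member was called higher and 1 lower, against 2.38% and 2.44% of gene spots. In WT plants 0 were called by Z score, against 2.03% of gene spots higher and 2.87% lower.

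TRXH7 was the member called higher. It measured 8.08 log2 units in SS and 7.48 in Op of OE-AhDof-AI plants (Z score 2.27), against 8.34 in SS and 7.55 ± 0.19 in Op (SD, n = 2) of WT plants. Only the SS channels were above background, so SS was at least 1.03-fold higher in OE-AhDof-AI plants and at least 1.31-fold higher in WT plants. The WT difference was 0.80 ± 0.35 log2 units (SE, Z score 1.74), with an unadjusted p of 0.0333 and an adjusted p of 1.0 in limma.

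TRXH1 was called lower in SS of OE-AhDof-AI plants, where it measured 12.66 log2 units, against 13.89 in Op (-1.24, Z score -2.35). WT plants on the same arrays measured 13.08 in SS and 14.08 in Op. Against the WT Op value of the OE-AhERF-VII array, 12.29, the WT SS value was higher by 0.80 log2 units, so the direction in WT plants turned with the Op array. Against both Op arrays the WT difference was -0.10 ± 0.66 (SE). The calls of TRXH1 in OE plants, higher in WS and lower in SS, therefore each go with the Op array of their line.

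TTL3 was higher in SS by 0.80 log2 units in OE-AhDof-AI plants (Z score 1.81) and by 1.09 ± 0.59 (SE) in WT plants (Z score 1.55, adjusted p = 1.0 in limma). TTL4 had a difference of -0.82 in OE-AhDof-AI plants (Z score -1.40). TRXH3 was 0.70 log2 units lower in SS in WT plants (Z score -1.48) and had a Z score of -1.46 in OE-AhDof-AI plants. FTRA1 stood 0.44 lower in OE-AhDof-AI plants (Z score -1.01) and 0.70 lower in WT plants (Z score -1.59). None of these was a call. Against the WT Op channel of the OE-AhDof-AI array alone, the WT differences were 0.75 for TTL3, -0.57 for TRXH3 and -0.52 for FTRA1.

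**Figure D4:**
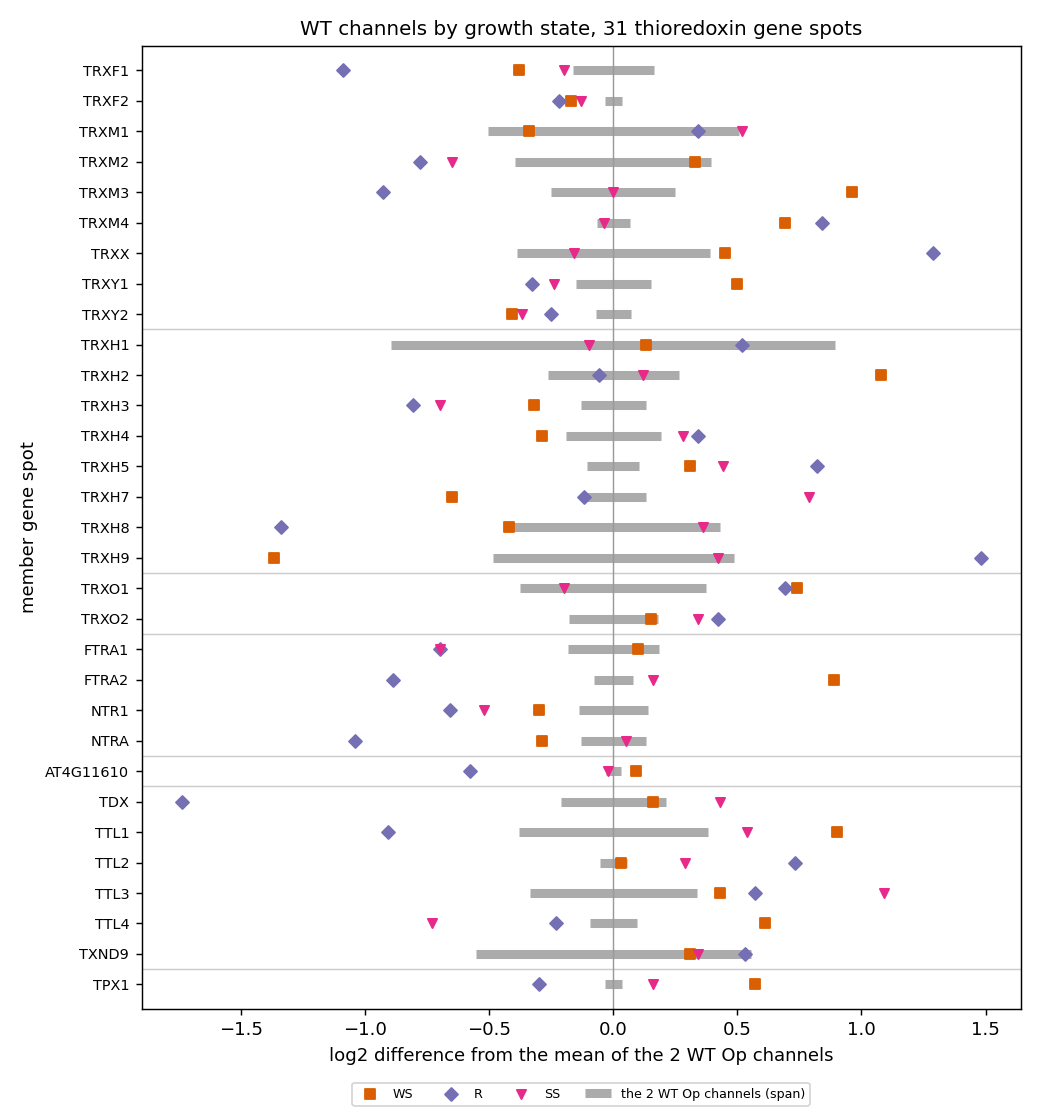
Log2 difference of the WT channels in WS, R and SS (shapes) from the mean of the WT Op channels (horizontal axis) for the 31 thioredoxin gene spots (rows, grouped by class). Grey bars span both WT Op channels: that of TRXH1 is 1.79 log2 units wide and holds all 3 of its other values, whereas the WS and R values of TRXH9 lie outside its bar on opposite sides.

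Glutaredoxin loci were taken from a list of locus numbers of the CC, CPYC and CGFS types, of which 30 loci with 32 spots were on the array. None of their descriptions named them as glutaredoxins. RefSeq gives a gene name to 11 of these loci, with 13 spots, and the other 19 loci are given only as counts. Of the 32 spots, 1 was called higher and 0 lower in OE-AhERF-VII plants in Op, 1 higher and 1 lower in WS, and 0 in R and on both OE-AhDof-AI arrays. The share over all gene spots and all 5 arrays was 1.79% higher and 3.16% lower. None of the 3 calls was at a locus named by RefSeq. The median log2 ratio was -0.04, 0.00 and 0.12 in Op, WS and R of OE-AhERF-VII plants and -0.02 and -0.08 in SS and Op of OE-AhDof-AI plants. Between states, 3 of the 32 spots were called higher and 0 lower in WS over Op of OE-AhERF-VII plants (1 and 0 in WT plants), 0 higher and 1 lower in R over WS of OE-AhERF-VII plants (likewise in WT plants), and 0 in SS over Op of OE-AhDof-AI plants, against 2 higher and 0 lower in WT plants. Over all gene spots and all 6 state differences the share was 2.31% higher and 2.5% lower.

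ROXY2, a CC-type glutaredoxin known from anther development, was the named locus with the largest differences between states. It measured 12.65, 14.40 and 13.57 log2 units in Op, WS and R of OE-AhERF-VII plants, and 12.27, 14.55 and 13.26 in WT plants on the same arrays. In SS and Op it measured 13.81 and 13.37 in OE-AhDof-AI plants, against 13.90 and 13.49 in WT plants. WS over Op was 1.74 log2 units in OE-AhERF-VII plants (Z score 3.39) and 1.66 in WT plants (Z score 3.52), and the WT difference had an unadjusted p of 0.0102 and an adjusted p of 0.999 in limma. Set against a single WT Op channel, the WT difference was 2.27 on the OE-AhERF-VII array (Z score 3.39) and 1.05 on the OE-AhDof-AI array (Z score 1.98, not a call). The WT channels were also called higher in SS over Op (1.02, Z score 2.24), but against the Op array of the same line the difference was 0.41 (Z score 0.87), and OE-AhDof-AI plants had 0.44 (Z score 1.11). They were called lower in R over WS (-1.29, Z score -2.06), where OE-AhERF-VII plants had a Z score of -1.68.

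No ratio of a named glutaredoxin was called. GRX480, which links salicylic acid to jasmonic acid signalling through TGA factors, had ratios of -0.26, -0.11 and 0.09 in Op, WS and R of OE-AhERF-VII plants and of -0.22 and -0.37 in SS and Op of OE-AhDof-AI plants, and ROXY1, known from petal development, had ratios between -0.19 and 0.20. The 3 spots of GRXS13 lay at brightness percentiles 76.0, 37.4 and 60.8 and gave log2 ratios of 0.65, -0.07 and 0.48 in OE-AhERF-VII plants in Op, none of them a call. CXIP2 was called higher in SS over Op in WT plants (1.16, Z score 2.21), with a difference of 0.52 (Z score 0.84) against the Op array of the same line and 1.80 (Z score 1.94) against the other, and OE-AhDof-AI plants had a difference of 0.44 (Z score 0.34). GRXS17 had a Z score just under 2 in WS over Op in OE-AhERF-VII plants (0.93 log2 units). GrxC5 was called lower in R over WS in OE-AhERF-VII plants (Z score -2.08) with its OE channels at background on all 5 arrays. GRXC1 and GRX4 were above background in no channel.

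Related loci were taken from lists written by locus number. Of 6 thioredoxin reductase spots, 4 of them members, 0 were called in a ratio; NTRC, which joins a reductase and a thioredoxin in one plastid protein, was above background in no channel, so its Z score of -2.25 in R over WS of OE-AhERF-VII plants has no fold. The plastid thioredoxin z gene (TRX z) was called higher in SS over Op in OE-AhDof-AI plants (0.74 log2 units, Z score 2.21). WT plants on the same arrays had a difference of 0.75 (Z score 1.55). CDSP32, a plastid protein known to accumulate under drought, was called lower in WS over Op in OE-AhERF-VII plants (-1.61, Z score -2.34), and WT plants had a difference of -0.95 (Z score -1.45). Its WT Op values were 13.01 log2 units on the OE-AhERF-VII array and 10.82 on the OE-AhDof-AI array, with the WT WS value of 10.97 between them. Of 14 spots of atypical thioredoxin-like proteins 2 were called lower in WS over Op of OE-AhERF-VII plants, against 2.99% of gene spots. Of their 84 state differences 1 was called higher and 4 lower, against 2.31% and 2.5% over all gene spots. Of 9 peroxiredoxin spots, PRXQ was called higher in SS over Op in WT plants (1.20 log2 units, Z score 2.26; 0.90 with a Z score of 1.63 against the Op array of the same line), and 0 were called in a ratio. The methionine sulfoxide reductases, repair enzymes that thioredoxins re-reduce, had 4 of 102 state differences called higher and 0 lower. This was near the share over all gene spots (2.31% higher and 2.5% lower). Of their 85 ratios 0 were called higher and 2 lower, against 1.79% and 3.16% over all gene spots. The 3 spots of MSRB9 did not run together in SS over Op. The one at brightness percentile 87.9 was called higher in OE-AhDof-AI plants (1.04 log2 units, Z score 3.08) and in WT plants (1.15, Z score 2.26), the one at percentile 71.3 had differences of -0.52 and -0.40, and the one at percentile 5.27 was at background throughout. Of 110 ratios of protein disulfide isomerase spots 2 were called higher and 0 lower, and of 55 ratios of glutathione genes 0 were called. Of 60 ratios of TGA factor spots, the partners of CC-type glutaredoxins, 0 were called higher and 3 lower. The share over the ratios of all gene spots was 1.79% higher and 3.16% lower. Of 72 state differences of TGA factor spots 1 was called higher and 5 lower, against 2.31% and 2.5% over all gene spots. In R over WS 2 TGA spots were called lower in OE-AhERF-VII plants and 2 in WT plants. The medians of the 12 TGA spots there were -0.52 and -0.33 log2 units.

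Among 16 spots of plastid enzymes that thioredoxins regulate, 1 of 80 ratios was called higher and 4 lower, against 1.79% and 3.16% over all gene spots. All 4 were of PRK, phosphoribulokinase of the Calvin cycle. PRK measured 7.84, 8.19 and 10.11 log2 units in Op, WS and R of OE-AhERF-VII plants, against 8.65, 8.75 and 10.38 in WT plants. In SS and Op of OE-AhDof-AI plants it measured 7.38 and 7.24, against 8.86 and 8.50 in WT plants. The Z scores were -2.61, -2.18 and -1.11 in Op, WS and R of OE-AhERF-VII plants, and -3.70 and -3.62 in SS and Op of OE-AhDof-AI plants. Only 1 of the 5 OE channels was above background, against all 5 WT channels. PRK was also called higher in R over WS in OE-AhERF-VII plants (Z score 2.21), where WT plants had a difference of 1.63 (Z score 1.65). At least 1 of these OE channels was at background, so no fold is given for them. The other enzyme called in a ratio was GAPA, a subunit of plastid glyceraldehyde-3-phosphate dehydrogenase, higher in R of OE-AhERF-VII plants (0.71 log2 units, Z score 2.48).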

How the data were processed

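The authors deposited, for each array, scanner intensity values (a mean and a local background per spot and channel) and a second set of normalized intensity values per transcript; the scanner software and that normalization are not described in the sources used here. The deposited log2 fold change column of the second set was not used. The normalized values recorded for WS and R were exchanged relative to the scanner files (100.0% of WT values within 1 unit of the array their column names, 0.274% and 0.278% of the other), and were taken by their column names; they served as an alternative only. Through them 27404 to 27449 gene spots per array had a value, all 31 members included.

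With limma 3.58.1 in R 4.3.3, spot intensities were background corrected (normexp, offset 50), normalized within arrays by loess with control spots at weight 0, and scaled between arrays (Aquantile). Every spot kept its own value. Z scores and counts were computed in Python 3.11.15 (NumPy 2.4.6, pandas 2.3.3), and figures with matplotlib 3.10.9. WT states were tested with limma (lmFit, eBayes with trend, 1 residual degree of freedom, prior 17.7) and Benjamini-Hochberg adjustment over 29234 gene spots. A bound ("at least") sets the brighter channel against the higher of the dim spot's value and the lowest value above background in that channel. The limit for background was set with the data in view. RefSeq names matched 31 of 31 members and 25818 of 26017 loci.

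The members and lists were chosen with earlier results of these data known. Named genes are the called members, the 4 highest and 4 lowest by Z score in each state comparison, fixed loci of the family, and up to 3 called members of a related list. Alternatives were other background, normalization, neighbour, brightness and locus settings, and leaving out either WT Op channel. Each ratio comes from 1 array, which limits its precision.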

Additional observations from a re-analysis of the deposited data

How the results depend on the processing

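Each ratio paired the OE and WT channels of 1 array. The labels give no replicate numbers that groups share, so arrays were not paired with each other. A fit that takes the states of a line as replicates of its OE and WT channels was not run. Counts of called members in ratios and in OE states moved by 1 where they moved, from 1 in OE-AhERF-VII plants in Op, 0 on the other ratio arrays, 2 in WS over Op, 3 in R over WS and 2 in SS over Op of OE plants. Without background correction the ratios gave 0 in Op and 1 in R of OE-AhERF-VII plants, and 1 in Op of OE-AhDof-AI plants. Leaving out gene spots under the 25th percentile of brightness, which kept 26 members, gave 0 in Op of OE-AhERF-VII plants, 1 in SS of OE-AhDof-AI plants, 1 in SS over Op of the same line and 2 in R over WS of OE-AhERF-VII plants. With 50 neighbours OE-AhERF-VII Op gave 2 and WS over Op of OE-AhERF-VII plants 1, and averaging the spots of a locus gave 2 in OE-AhERF-VII Op. Print-tip loess gave 1 in WS and 1 in R, the deposited normalized files 1 in WS, 1 in R and 1 in SS, and quantile normalization 1 in WS over Op and 4 in R over WS of OE-AhERF-VII plants. A limit of 2-fold gave 0 in OE-AhERF-VII Op. The cause of these moves was not tested. In WT plants limma called 0 members in each contrast with and without trend, and a Z score of 2 gave 4 in R over WS. Leaving out either WT Op channel, where no residual spread was left and Z scores were used, gave 1 member in WS over Op (TRXH9 without the OE-AhERF-VII array, TRXH7 without the OE-AhDof-AI array) and 2 in SS over Op (TRXH1 and TRXH7, or TTL3 and TRXM2). The calls of TRXH9, TDX and TRXH1 in OE plants held under all 5 settings tried for each. Those of TRXM2 and TRXH7 held under 4 settings, and both spots were dropped when dim spots were left out. TRXM2 had both OE channels at background in its comparison, and TRXH7 the Op channel. In WT plants TRXH7 was at background in WS and in both Op channels, and TRXM2 in SS. With the WT Op channel used, the WT difference changed sign in 9 members in WS over Op and in 11 in SS over Op; that of TRXH1 in SS over Op was below 0 (Z score -2.35) on the OE-AhDof-AI array and 0.80 on the OE-AhERF-VII array.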
